A study of Mus musculus with 24 samples.

Results

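The Fc gamma receptor genes of the mouse and the genes that belong with them were followed through 24 RNA libraries of alveolar-like bone marrow-derived macrophages (BMDMs). The set holds 6 genes, chosen by symbol: the activating receptors Fcgr1, Fcgr3 and Fcgr4, the inhibitory receptor Fcgr2b, the common signalling chain Fcer1g and the neonatal receptor Fcgrt. They are 6 of the 55421 genes in the count table, and all 6 were abundant enough to be among the 16593 genes tested.

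Fc gamma receptors bind the constant part of IgG and let a phagocyte take up and respond to antibody-coated particles. The activating receptors carry no signalling motif of their own. They depend on the common gamma chain, encoded by Fcer1g, whose tyrosine motif recruits the kinase Syk, whereas FcγRIIB carries an inhibitory motif that recruits the lipid phosphatase SHIP-1 and dampens the same cascade. The balance of activating over inhibitory receptors on a macrophage is known to set its threshold for immune complexes, and inflammatory stimuli are known to shift it. FcRn, the product of Fcgrt, differs in kind: it pairs with β2-microglobulin and returns IgG from endosomes to the cell surface or the circulation.

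BMDMs came from wildtype mice and from mice carrying the Ahr tm1Bra allele, which lack the aryl hydrocarbon receptor in all their cells (AhR-deficient), of both sexes and 7 to 14 weeks of age. All cultures received GM-CSF at 10 ng/ml and TGF-β at 2 ng/ml, and the protocol lists the Ca2+ ionophore A23187 at 5 µM for the last 10 min for all of them. The comparison was of genotype and of LPS, at 97 EU/ml from day 6 for 24 h, in 4 groups of 6 libraries, which asks whether AhR changes the receptors of resting and of stimulated cells. The labels do not tie an unstimulated library to an LPS library of the same animal, so that the p-values measure the spread between libraries. In bulk RNA, fewer cells of a type and less RNA per cell cannot be told apart.

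Depth was 45106052 to 76992663 counts per library, so that each of the 6 genes had at least 268 counts in every library. Values are counts relative to library size (CPM) after TMM scaling. A differentially expressed gene (DEG) had an adjusted p of at most 0.05 in edgeR's quasi-likelihood test and a log2 fold change of at least 1 in either direction. For the interaction of genotype and LPS no minimum fold change was set. Macrophage markers were present in all groups, with Lyz2, the macrophage lysozyme, at group means of 13691 to 26479 CPM. So were the alveolar macrophage markers Siglecf (7.43 to 184 CPM) and Car4 (874 to 3674 CPM). Upon LPS, 5 of 8 alveolar macrophage markers were called lower and 2 higher in wildtype BMDMs, against 11.8% and 13.2% of all tested genes. In AhR-deficient BMDMs it was 4 and 2, against 15.7% and 15.1%. Siglecf was among the lower and Car4 among the higher in both genotypes. Libraries 19 (AhR-deficient, unstimulated) and 33 (wildtype, unstimulated) stood farthest from their groups along the first component of the residuals. Libraries 17 to 40 form 3 runs of 8 consecutive numbers with 2 libraries of every group in each, although the labels do not say that a run was handled together. In the middle run, libraries 25 to 32, log2 CPM rose more steeply with log2 gene length (slope 0.49 to 0.59) than in the others (0.10 to 0.44). The counts of Ahr itself cover the whole gene, including parts that the targeted allele retains, and do not check the labels: mean Ahr was 28.3 ± 12.2 CPM in wildtype and 7.42 ± 2.39 CPM in AhR-deficient BMDMs without stimulation, and 16.8 ± 7.63 against 43.1 ± 16.2 CPM after LPS (SD, n = 6).

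Fcgr2b, Fcgr4, Fcgr3 and Fcer1g lie together on chromosome 1. In the mm10 coordinates of the count table, Fcgr2b spans chr1:170958617-170976547 (minus strand), Fcgr4 chr1:171018920-171029761 (plus strand), Fcgr3 chr1:171051174-171064935 (minus strand) and Fcer1g chr1:171229572-171234365 (minus strand). Gaps of 42372, 21412 and 164636 bases separate them in this order. Fcgr1 lies apart at chr3:96282909-96293969 (minus strand), as does Fcgrt at chr7:45092990-45103851 (minus strand). Fcgr2b and Fcgr3 are similar in their extracellular part, so reads could be misassigned between them. Of the 100-base stretches of Fcgr3 transcripts, 44 of 1733 (2.54%) also occurred in another gene, in each case Fcgr2b, and of those of Fcgr2b 82 of 5843 (1.40%) did. Fcgr1, Fcgr4, Fcer1g and Fcgrt shared none.

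The promoters of the genes were searched on both strands, from 250 bases before to 50 bases after the RefSeq start, for 3 motifs: an ISRE-like motif (GAAA, 2 bases of any kind and GAAA again, bound by interferon regulatory factors), a PU.1-like motif (AGGAAGT, the site of a myeloid master factor) and the AhR response core (GCGTG). The sequence just before the start is shown for Fcgr1 and Fcgr4, the receptors in which genotype and LPS interacted (described below), from RefSeq on GRCm38.p6, in the direction of the gene. Capitals mark the matches, which lie on the strand shown or, for PU.1-like, on its complement. The last 6 bases shown for Fcgr4 lie in the first exon of the count table's gene model.
Fcgr1, chr3:96293970-96294089, minus strand: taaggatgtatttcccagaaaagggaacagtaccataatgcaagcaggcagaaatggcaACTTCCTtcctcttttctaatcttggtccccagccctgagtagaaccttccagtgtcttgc
Fcgr4, chr1:171018806-171018925, plus strand: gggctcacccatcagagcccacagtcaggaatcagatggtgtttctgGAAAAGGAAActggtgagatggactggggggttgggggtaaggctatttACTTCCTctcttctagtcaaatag
Fcgr1 held a PU.1-like match 61 bases before the start. Fcgr4 held an ISRE-like match 73 bases and a PU.1-like match 24 bases before it. Among all 32851 promoter windows, 3.44% held an ISRE-like and 9.35% a PU.1-like match. The AhR response core, found in 32.4% of the windows, was matched in Fcgr3, Fcer1g and Fcgrt, and the window of Fcgr2b held no match to any of the 3. These are matches of letters and no measurement of binding.

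Levels of different genes were compared as CPM per kb of exon. In unstimulated wildtype BMDMs, Fcer1g (326 ± 31.4 CPM per kb, SD, n = 6) and Fcgr3 (322 ± 46.5) stood at the top with overlapping ranges. Fcgrt (57.7 ± 15.9), Fcgr2b (39.7 ± 5.93) and Fcgr1 (33.04 ± 7.48) followed, each overlapping its neighbour, and Fcgr4 (15.8 ± 3.22) was lowest in all 6 libraries. The low-affinity receptor Fcgr3 was thus the main activating receptor transcript at rest, with a median of 86.9% of the activating CPM per kb against 8.88% for Fcgr1 and 4.23% for Fcgr4. AhR-deficient BMDMs at rest kept this order, except that the mean of Fcgr3 (431 ± 70.5) lay above that of Fcer1g (401 ± 41.03), a pair that overlapped. After LPS, Fcgr1 stood above Fcgr2b, at 186 ± 78.7 against 98.04 ± 30.4 CPM per kb in wildtype BMDMs, where the order held in 4 of 6 libraries. In AhR-deficient BMDMs it was 440 ± 159 against 98.1 ± 18.5, without overlap. Fcgrt then had the lowest mean, at 20.9 ± 6.85 and 16.5 ± 3.44 CPM per kb. Fcgr4 stood above it in 4 of 6 wildtype and 6 of 6 AhR-deficient libraries, with overlapping ranges in both. The share of Fcgr1 in the activating CPM per kb had a median of 20.6% in wildtype and 29.4% in AhR-deficient BMDMs after LPS, and that of Fcgr3 was 76.2% and 67.6%.

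**Figure D1:**
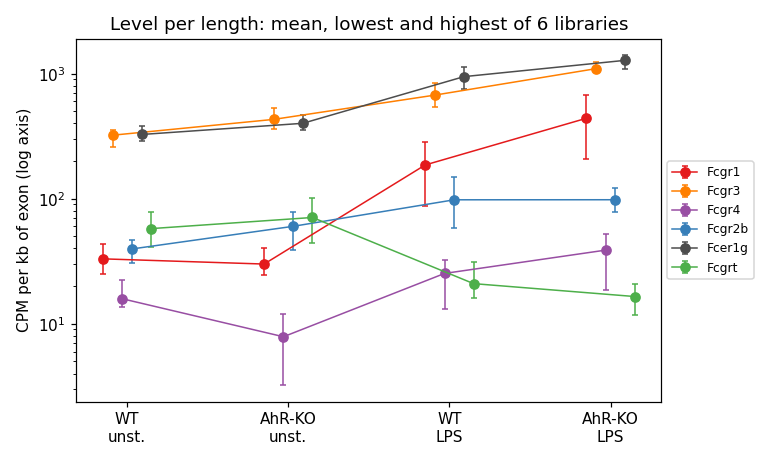
Level of the 6 genes per length of exon (CPM per kb, log axis) in the 4 groups; points are means and bars run from the lowest to the highest of 6 libraries. Fcer1g and Fcgr3 lead throughout, Fcgr1 rises above Fcgr2b with LPS, and Fcgrt falls to the lowest mean, in a range that overlaps that of Fcgr4.

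LPS raised the activating receptors Fcgr1 and Fcgr3 and the chain Fcer1g in both genotypes and lowered Fcgrt in both. In wildtype BMDMs, 4 of the 6 genes were called higher and 1 lower, against 13.2% of all tested genes called higher and 11.8% lower. In AhR-deficient BMDMs it was likewise 4 and 1, against 15.1% and 15.7%. The median log2 fold change of the 6 genes was 1.19 and 1.51, beside 0.03 and -0.03 over all tested genes. Libraries of the groups compared did not overlap for 5 of 6 genes in wildtype (22.4% of all tested genes) and for 6 of 6 in AhR-deficient BMDMs (28.5%).

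Fcgr1 encodes the high-affinity receptor for IgG, a gene known for its response to interferon. In wildtype BMDMs its lowest, median and highest values were 64.2, 84.0 and 112 CPM without stimulation and 227, 489 and 741 CPM after LPS. In AhR-deficient BMDMs they were 63.3, 73.0 and 105 CPM without stimulation and 543, 1187 and 1740.5 CPM after LPS. Every stimulated library stood above every unstimulated one, and libraries 29 to 32 of the middle run were the lowest of their LPS groups. The increase was 5.64-fold in wildtype (log2 fold change 2.50, SE 0.29, adjusted p = 2.36e-07, edgeR) and 14.6-fold in AhR-deficient BMDMs (3.87, SE 0.31, adjusted p = 3.10e-10).

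Fcgr3, a low-affinity activating receptor for IgG, was at 447, 606 and 619 CPM without stimulation and 945, 1185 and 1476 CPM after LPS in wildtype BMDMs. In AhR-deficient BMDMs it was at 625, 712 and 919 CPM without stimulation and 1820, 1862 and 2164 CPM after LPS. The groups did not overlap in either genotype. It increased 2.09-fold in wildtype (log2 fold change 1.07, SE 0.14, adjusted p = 1.02e-06, edgeR) and 2.55-fold in AhR-deficient BMDMs (1.35, SE 0.14, adjusted p = 1.98e-08).

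Fcgr4, the mouse receptor with a preference for certain IgG subclasses and expressed by macrophages, monocytes and neutrophils, was the least abundant. Its values were 17.1, 18.8 and 27.9 CPM without stimulation and 16.6, 36.7 and 40.7 CPM after LPS in wildtype BMDMs, where the groups overlapped and LPS libraries 29 and 30 of the middle run were low. The log2 fold change of 0.67 did not pass the test (SE 0.29, adjusted p = 0.070, edgeR). Over 12 other settings it was 0.33 to 0.80 with an adjusted p of 0.0055 to 0.34, and it passed the p but not the fold threshold with, among others, the run as a factor (adjusted p = 0.038, edgeR) or without libraries 19 and 33 (adjusted p = 0.033). In AhR-deficient BMDMs the values were 4.06, 9.34 and 14.9 CPM without stimulation and 23.2, 51.3 and 66.2 CPM after LPS. There every stimulated library stood above every unstimulated one, and the gene rose 4.93-fold (log2 fold change 2.30, SE 0.30, adjusted p = 9.56e-07).

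Fcer1g, the common gamma chain, varied little between libraries of a group. It was at 254, 283 and 333 CPM without stimulation and 659, 830.4 and 991 CPM after LPS in wildtype BMDMs. In AhR-deficient BMDMs it was at 311, 346 and 409 CPM without stimulation and 961, 1137 and 1225 CPM after LPS. All groups were separated by LPS, with a 2.90-fold increase in wildtype (log2 fold change 1.54, SE 0.11, adjusted p = 1.48e-10, edgeR) and a 3.19-fold increase in AhR-deficient BMDMs (1.67, SE 0.11, adjusted p = 1.71e-11). Mast cells and basophils also use this chain. The summed level of 8 of their markers had a median of 18.2 CPM in wildtype and 3.88 CPM in AhR-deficient BMDMs without stimulation, and 487 and 619 CPM after LPS, of which the histidine decarboxylase gene Hdc made up 411 and 648 CPM on average. Between the genotypes after LPS, Hdc and the tryptase gene Tpsb2 (log2 fold change 0.18) were not called, while 5 of the 8 were called lower in AhR-deficient BMDMs, namely Kit (log2 fold change -1.85), Gata2 (-5.18), Cpa3 (-2.17), Mcpt8 (-2.43) and Ms4a2 (-1.98). At rest 5 of the 8 were called lower as well, beside 3.57% of all tested genes (6.19% after LPS). This count was 3 on leaving out library 17 or 26. The part of these markers in the Fcer1g result was not tested.

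Fcgr2b, the inhibitory receptor, was at 177, 237 and 271 CPM without stimulation and 335, 526 and 856 CPM after LPS in wildtype BMDMs. The groups did not overlap, and the gene rose 2.47-fold (log2 fold change 1.31, SE 0.20, adjusted p = 1.12e-05, edgeR). In AhR-deficient BMDMs the values were 225, 339 and 453 CPM without stimulation and 456, 548 and 700.3 CPM after LPS. The groups were again separate, by a narrow margin, and the 1.63-fold difference (log2 fold change 0.71, SE 0.20, adjusted p = 0.0048) passed the p but not the fold threshold. B cells also express Fcgr2b. None of 7 B and plasma cell markers reached 1 CPM in any group mean, and their sum was at most 1.15 CPM in any library, whereas the heavy chain genes Ighm (28.8 CPM) and Igha (9.21 CPM) were counted in unstimulated wildtype BMDMs. The part of such transcripts in the Fcgr2b result was not tested.

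Fcgrt encodes the heavy chain of FcRn. It was at 85.9, 116 and 164 CPM without stimulation and 33.8, 35.8 and 66.1 CPM after LPS in wildtype BMDMs, and at 92.4, 155 and 213 CPM without stimulation and 24.7, 35.8 and 43.5 CPM after LPS in AhR-deficient BMDMs. Every stimulated library lay below every unstimulated one. The decrease was 2.76-fold in wildtype (log2 fold change -1.46, SE 0.23, adjusted p = 1.67e-05, edgeR) and 4.29-fold in AhR-deficient BMDMs (-2.10, SE 0.23, adjusted p = 8.50e-08). Its partner B2m moved the other way, from 1138 ± 327 to 3398 ± 1396 CPM in wildtype (log2 fold change 1.58, SE 0.35, adjusted p = 8.70e-04) and from 1410.4 ± 587 to 5081 ± 2658 CPM in AhR-deficient BMDMs (1.85, SE 0.35, adjusted p = 1.39e-04). Scaling by total library size, under which the median log2 fold change of all tested genes was -0.31 in wildtype and -0.52 in AhR-deficient BMDMs (0.03 and -0.03 with TMM), left 3 of the 6 genes called for LPS in wildtype, with Fcgr2b at 0.96 and Fcgr3 at 0.71. In AhR-deficient BMDMs this scaling put Fcgr3 at 0.88, under the fold threshold. Over 12 other settings, Fcgr2b was there at 0.21 to 0.73 with an adjusted p of 4.94e-06 to 0.48, and 4 to 6 of the 6 genes were called.

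**Figure D2:**
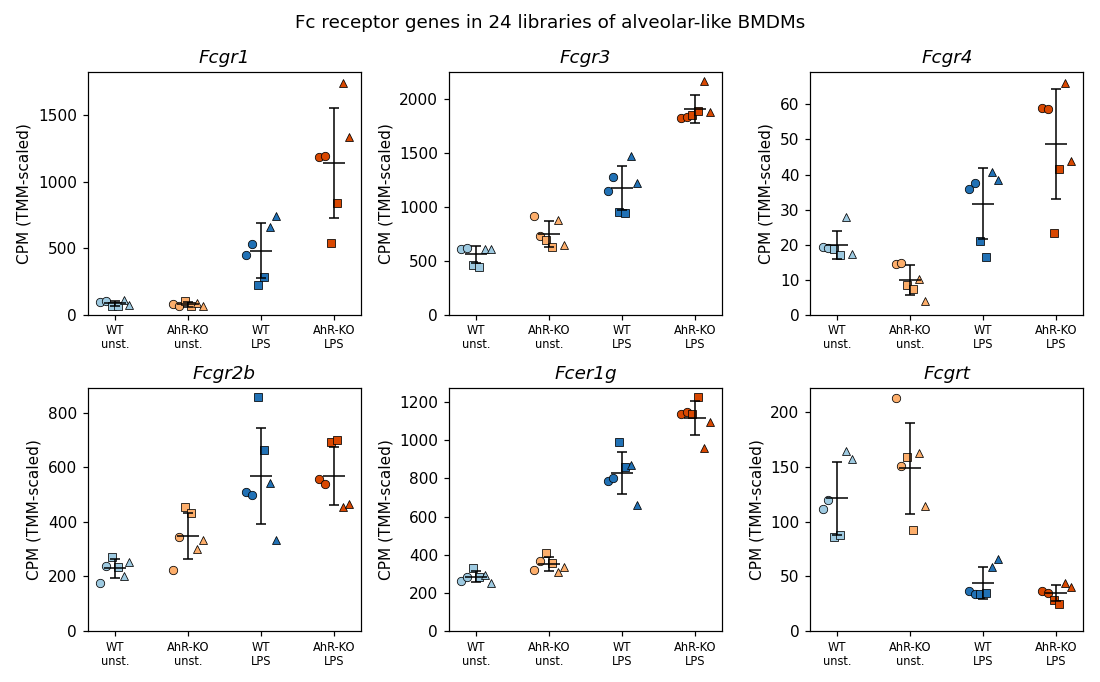
Level of the 6 genes in each of the 24 libraries (CPM after TMM scaling, linear axis from 0) by group; circles, squares and triangles are the runs of library numbers 17 to 24, 25 to 32 and 33 to 40, and bars are mean ± SD of 6 libraries. Fcgr1, Fcgr3 and Fcer1g stand higher and Fcgrt lower in every LPS library than in every unstimulated library of the same genotype.

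Without stimulation, Fcgr4 was the only one of the 6 genes called between the genotypes, and it was lower in AhR-deficient BMDMs. The other activating receptor genes, the chain and Fcgrt were not called. Of all tested genes 3.57% were called lower and 0.916% higher in this comparison, and the median log2 fold change was 0.30 over the 6 genes and -0.01 over all. Libraries did not overlap for 2 of the 6 genes, Fcgr3 and Fcgr4, beside 5.15% of all tested genes.

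Fcgr4 was at 17.1 to 27.9 CPM in wildtype and 4.06 to 14.9 CPM in AhR-deficient BMDMs, with every AhR-deficient library below every wildtype one. The decrease was 2.01-fold (log2 fold change -1.01, SE 0.29, adjusted p = 0.036, edgeR), at the edge of both thresholds. Over 12 other settings the log2 fold change was between -1.12 and -0.98 and the adjusted p between 0.0014 and 0.055. With DESeq2, DESeq2 size factors, another filter on low counts, only the 12 libraries compared, or without libraries 19 and 33 it was not called, and 0 of the 6 genes then were. It was also lost on leaving out any of 7 single libraries, namely 17, 18, 27, 28, 33, 35 or 36, with a log2 fold change of -0.85 to -1.16 over all 24 libraries left out in turn. Within the 3 runs it was -1.69 to -0.38.

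Neutrophil transcripts moved with genotype as well. The summed level of 10 neutrophil markers was 1691 to 12716 CPM (median 2584) in wildtype and 259 to 809 CPM (median 421) in AhR-deficient BMDMs without stimulation, and 8 of the 9 markers tested were called lower. Wildtype library 33 had the highest Fcgr4 of its group (27.9 CPM, next 19.5) and the highest neutrophil sum (12716 CPM). Wildtype library 25, second in neutrophil sum (5015 CPM), had 18.7 CPM of Fcgr4, within the range of the others, and AhR-deficient library 20 had the lowest neutrophil sum (259 CPM) and the highest Fcgr4 (14.9 CPM) of its group. After LPS the neutrophil sum was again lower in AhR-deficient BMDMs (median 219 against 1312 CPM, 6 of 9 markers called lower), and Fcgr4 was not called. The library with the highest neutrophil sum of its LPS group also had the highest Fcgr4 in both genotypes. These were library 37 in wildtype (8436 and 40.7 CPM) and library 39 in AhR-deficient BMDMs (1020 and 66.2 CPM). Wildtype LPS library 29, second in neutrophil sum (3617 CPM), had 21.1 CPM of Fcgr4. None of the 7 macrophage markers was called at rest. Their sum had a median of 30779 CPM in AhR-deficient and 18087 CPM in wildtype BMDMs and was made up mostly of Lyz2 (means 26479 and 17796 CPM). Adgre1, which encodes F4/80, had a lower mean in AhR-deficient BMDMs, 433 against 693 CPM, and passed the p but not the fold threshold (log2 fold change -0.68, adjusted p = 0.040, edgeR). Itgam, which encodes CD11b, was at 25.8 against 61.2 CPM (-1.25, adjusted p = 0.18, edgeR). Other macrophage markers had higher means in AhR-deficient BMDMs. Itgax was at 1323 against 555 CPM (1.25, adjusted p = 0.061, edgeR) and Cd68 at 369 against 241 CPM (0.61, adjusted p = 0.28, edgeR). Of the 8 alveolar macrophage markers, Siglecf (log2 fold change 1.57) and Ear2 (1.48), a ribonuclease, were called higher and 0 lower (edgeR), while Il1rn, the interleukin-1 receptor antagonist, had a lower mean, 531 against 954 CPM, that passed the p but not the fold threshold (-0.85, adjusted p = 0.013, edgeR). Dendritic cell markers had a median sum of 23.5 CPM in AhR-deficient and 95.5 CPM in wildtype BMDMs at rest. Of the 7 tested, Flt3, Ccr7, Cd209a and Cd207 were called lower, and Clec9a and Batf3 were called higher. The part of these transcripts in the genotype results at rest was not tested.

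For the other genes without stimulation, Fcgr2b was higher in 5 of 6 AhR-deficient libraries than in any wildtype library, with a log2 fold change of 0.60 that missed the threshold (SE 0.20, adjusted p = 0.077, edgeR). Fcgr3 was separate between the genotypes, from 447 to 619 against 625 to 919 CPM, yet its 0.42 did not pass with the runs pooled (SE 0.13, adjusted p = 0.071, edgeR). The log2 fold change was 0.30 for Fcer1g (SE 0.11, adjusted p = 0.14), 0.30 for Fcgrt (SE 0.22, adjusted p = 0.77) and -0.14 for Fcgr1 (SE 0.27, adjusted p = 1), with overlapping groups for each. With the run as a factor, a setting under which Fcgr4 kept its call (-1.06), Fcgr2b, Fcgr3 and Fcer1g passed the p threshold (adjusted p = 0.0078, 0.0080 and 0.035, edgeR), and with DESeq2 they did so without it (adjusted p = 0.026, 0.018 and 0.020), in each case under the fold threshold. Over the 12 other settings the adjusted p ran from 6.88e-04 to 0.26 for Fcgr2b, 1.49e-04 to 0.14 for Fcgr3 and 0.0058 to 0.57 for Fcer1g. Within the runs the log2 differences were 0.44 to 0.81, 0.30 to 0.53 and 0.24 to 0.33, so that the 3 genes were higher in AhR-deficient BMDMs in every run.

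After LPS, the high-affinity receptor Fcgr1 was higher in AhR-deficient BMDMs, and it was the only one of the 6 genes called. Of all tested genes, 2.17% were called higher and 6.19% lower, and the median log2 fold change was 0.53 over the 6 genes and -0.05 over all. Fcgr1 was at 227 to 741 CPM in wildtype and 543 to 1740.5 CPM in AhR-deficient BMDMs. The ranges overlapped through library 31, the lowest of the AhR-deficient ones, and the other 5 stood above every wildtype library. The increase was 2.36-fold (log2 fold change 1.24, SE 0.28, adjusted p = 0.0031, edgeR). The gene was called on leaving out each library in turn (1.07 to 1.40) and stood 1.12 to 1.41 higher on the log2 scale within each of the 3 runs.

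Fcgr3 after LPS was separate between the genotypes, at 945 to 1476 CPM in wildtype and 1820 to 2164 CPM in AhR-deficient BMDMs, as the only one of the 6 genes without overlap (7.11% of all tested genes). The 1.63-fold difference (log2 fold change 0.70, SE 0.14, adjusted p = 7.73e-04, edgeR) passed the p but not the fold threshold. The same held for Fcer1g, with a 1.35-fold difference (0.43, SE 0.11, adjusted p = 0.0085). Over 12 other settings Fcer1g was at 0.22 to 0.49 with an adjusted p of 3.46e-05 to 0.34, while that of Fcgr3 was at most 0.0047. With no minimum fold change, 3 of the 6 genes were called. Fcgr2b did not differ detectably, at 568 ± 176 against 568 ± 107 CPM (0.00, SE 0.20, adjusted p = 1.0). Fcgr4 (0.62, SE 0.29, adjusted p = 0.19) and Fcgrt (-0.34, SE 0.22, adjusted p = 0.43) were not called. Dendritic cell markers, which include Ccr7, were also lower in sum in AhR-deficient BMDMs after LPS (median 260 against 1450 CPM, 4 of 7 tested markers called lower), and alveolar macrophage markers were higher in sum (median 12121 against 7063 CPM). Of the latter, 2 of 8 were called higher, Ear2 (log2 fold change 1.98) and the carbonic anhydrase Car4 (1.004), and 1 on leaving out any of libraries 19, 21, 22, 32, 33, 38, 39 or 40. Pparg (-0.51) and Fabp4 (-0.32) had lower means in AhR-deficient BMDMs and were not called. The sum was made up mostly of Car4, Il1rn and Chil3 (means 3674, 4927 and 2791 CPM in AhR-deficient BMDMs). The part of these markers in the receptor results was not tested. Markers of NK and T cells summed to at most 1.58 CPM in any library.

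**Figure D3:**
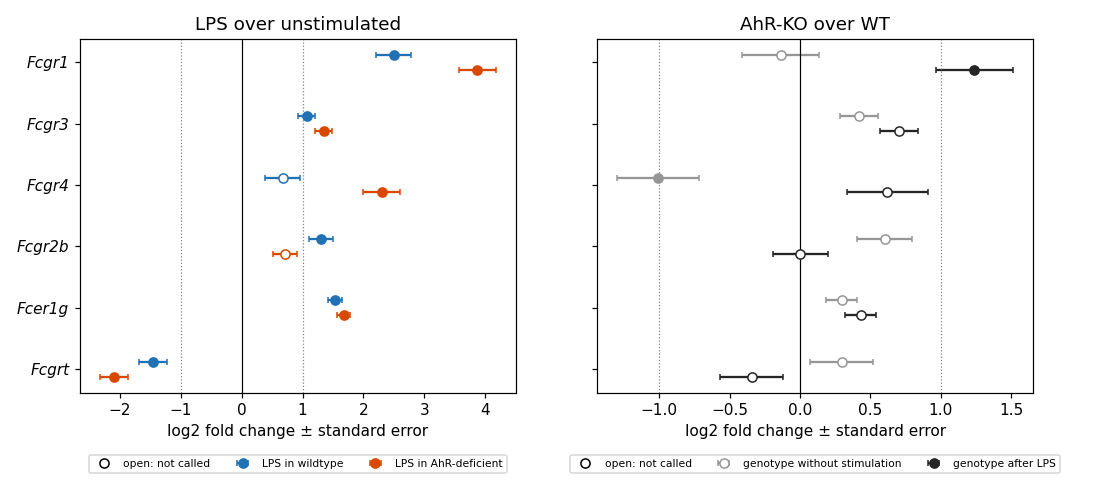
Log2 fold change with its standard error (edgeR, all 24 libraries) of the 6 genes for LPS over unstimulated, left, and AhR-deficient over wildtype, right; filled points passed both thresholds and dotted lines mark a log2 fold change of 1. Fcgr1 and Fcgr4 show the largest gaps between the paired points of both panels, Fcgr2b lies at 0.60 and 0.00 in the right panel, and Fcgrt is the only gene left of 0 in the left panel.

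The response to LPS itself differed by genotype for Fcgr1 and Fcgr4. The interaction was called for these 2 of the 6 genes, both with a larger increase in AhR-deficient BMDMs, beside 1.95% of all tested genes called in this direction and 2.34% in the other. The median interaction was 0.21 over the 6 genes and -0.05 over all tested genes. For Fcgr4 the log2 fold change upon LPS was 1.63 larger in AhR-deficient BMDMs (SE 0.41, adjusted p = 0.021, edgeR), from a lower level at rest, and it was called on leaving out each library in turn and in all 11 other settings. For Fcgr1 it was 1.38 larger (SE 0.39, adjusted p = 0.042), from means of 77.7 CPM in AhR-deficient and 85.6 CPM in wildtype BMDMs at rest. This call was close to the threshold: on leaving out single libraries it remained for 7 of 24 (25, 26, 27, 31, 32, 37 and 38) with an adjusted p between 0.015 and 0.084, and it was lost without libraries 19 and 33 (1.30, adjusted p = 0.082) and without the filter (1.37, adjusted p = 0.060), in a range of 5.25e-04 to 0.082 over 11 settings. The inhibitory receptor Fcgr2b went the other way without passing the test (-0.60, SE 0.28, adjusted p = 0.33), as did Fcgrt (-0.64, SE 0.32, adjusted p = 0.40). Fcgr3 (0.28, SE 0.19, adjusted p = 0.66) and Fcer1g (0.14, SE 0.15, adjusted p = 0.93) were not called. With the length slope of each library as a covariate 4 of the 6 genes were called, and with the first residual component 5, both including Fcgr2b and Fcgrt.

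Activating and inhibitory receptors were set against each other within each library, as the log2 ratio of counts per kb of each activating receptor to Fcgr2b. The 3 ratios in 4 comparisons gave 12 exact two-sided permutation tests over all arrangements of the libraries, in which the smallest p possible is 0.0022, and p-values were adjusted over the 12. Such a ratio does not depend on the scaling of libraries, but its genes differ in length (5790 bases of exon for Fcgr2b, against 2589 for Fcgr1, 1736 for Fcgr3 and 1256 for Fcgr4). In all 4 groups the lowest Fcgr1 and the lowest Fcgr3 ratio belonged to a library of the middle run, with its steep length slope.

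At rest, the balance of Fcgr4 to Fcgr2b was lower in AhR-deficient BMDMs. The ratio was 0.314, 0.350 and 0.637 (lowest, median, highest) in wildtype and 0.0564, 0.116 and 0.295 in AhR-deficient libraries. The groups were separate, with a mean log2 difference of -1.69 (SD 0.42 and 0.91, n = 6 each, exact permutation p = 0.0022, adjusted p = 0.013). Within the runs it was -0.83, -1.99 and -2.26. Fcgr1 to Fcgr2b was 0.71 lower on the log2 scale in AhR-deficient libraries with overlap (exact permutation p = 0.032, adjusted p = 0.087), and Fcgr3 to Fcgr2b differed by -0.16 (exact permutation p = 0.58, adjusted p = 0.58).

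With LPS, the balance of Fcgr1 to Fcgr2b rose in AhR-deficient BMDMs, from 0.328, 0.473 and 0.814 to 1.75, 4.84 and 8.54. No library at rest reached the lowest stimulated one. The mean log2 difference was 3.09 (SD 0.48 and 0.84, n = 6 each, exact permutation p = 0.0022, adjusted p = 0.013), and 3.06, 2.39 and 3.80 within the runs. In wildtype BMDMs the ratio was 0.530, 0.792 and 1.24 at rest and 0.592, 2.16 and 4.95 after LPS, with overlap and a mean log2 difference of 1.14 that did not pass (exact permutation p = 0.052, adjusted p = 0.089). Its values within the runs, 1.04, 0.36 and 2.02, were spread widely. The remaining comparisons did not pass after adjustment. Among them, Fcgr4 to Fcgr2b was 1.63 higher on the log2 scale after LPS in AhR-deficient BMDMs (exact permutation p = 0.013, adjusted p = 0.052). After LPS, AhR-deficient libraries lay above wildtype ones by 1.23 for Fcgr1 to Fcgr2b (exact permutation p = 0.065, adjusted p = 0.097), 0.68 for Fcgr3 to Fcgr2b (exact permutation p = 0.043, adjusted p = 0.087) and 0.58 for Fcgr4 to Fcgr2b (exact permutation p = 0.25, adjusted p = 0.30). Within the runs these differences were 1.17, 1.52 and 1.01 for Fcgr1, 0.47, 1.09 and 0.47 for Fcgr3 and 0.56, 0.84 and 0.33 for Fcgr4. The libraries of both groups were also separate within each of the 3 runs in 6 of the 12 comparisons, which the tests over pooled runs do not take into account. These were both comparisons that passed, Fcgr1 to Fcgr2b between the genotypes (lower in AhR-deficient libraries at rest and higher after LPS), Fcgr3 to Fcgr2b between the genotypes after LPS and Fcgr4 to Fcgr2b upon LPS in AhR-deficient BMDMs.

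The summed activating receptors over Fcgr2b, both per kb, had a median of 9.43 in wildtype (range 6.56 to 13.1) and 7.31 in AhR-deficient BMDMs (5.23 to 14.7) at rest, and of 10.5 (4.41 to 17.6) and 16.5 (10.8 to 25.04) after LPS. The ranges overlapped in each comparison. The sum is carried mostly by Fcgr3 and is given as a description. Without division by length the medians were 2.92, 2.25, 3.44 and 5.61 in the same order of groups.

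**Figure D4:**
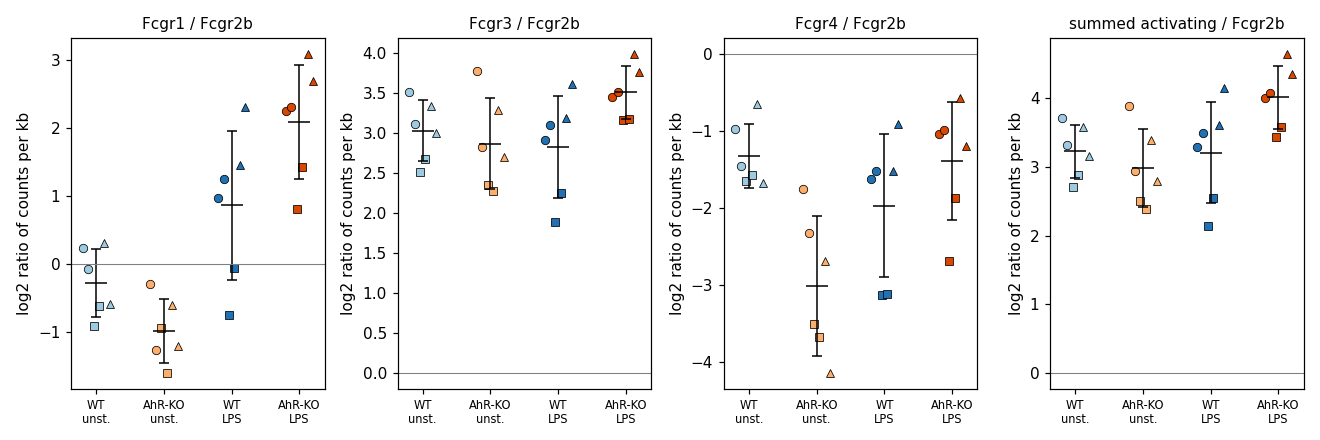
Log2 ratio of each activating receptor, and of their sum, to Fcgr2b (counts per kb of exon) in each library by group; symbols mark the runs of library numbers as in the plot of levels, and bars are mean ± SD of 6 libraries. The Fcgr4 ratio of unstimulated AhR-deficient libraries lies below that of all unstimulated wildtype libraries, and the Fcgr1 ratio of AhR-deficient libraries after LPS lies above that of all unstimulated AhR-deficient ones.

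The other chains did not follow Fcer1g. Tyrobp (DAP12), the adaptor of many myeloid receptors, was at 623 ± 201 CPM in wildtype and 618 ± 220 CPM in AhR-deficient BMDMs at rest, and at 458 ± 188 and 343 ± 64.9 CPM after LPS (SD, n = 6). None of its comparisons was called, although the log2 fold change of -0.85 upon LPS in AhR-deficient BMDMs had an adjusted p of 0.0069 (edgeR). Hcst (DAP10), an adaptor of NK cell receptors, was at group means of 6.90 to 11.2 CPM.

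Of 9 other receptors that signal through Fcer1g, 7 were tested. LPS raised 4 and lowered 1 in wildtype (median log2 fold change 1.23) and raised 3 and lowered 1 in AhR-deficient BMDMs (0.32). Over all tested genes, 13.2% were called higher and 11.8% lower in wildtype, and 15.1% and 15.7% in AhR-deficient BMDMs. Clec4e (Mincle), a receptor for mycobacterial and fungal glycolipids, rose from 99.97 ± 45.4 to 3362 ± 1472 CPM in wildtype (log2 fold change 5.07, SE 0.34, adjusted p = 5.36e-11, edgeR) and from 101 ± 27.8 to 4832 ± 1452 CPM in AhR-deficient BMDMs (5.58, SE 0.35, adjusted p = 6.99e-12). Its neighbour in function Clec4d rose from 141 ± 90.4 to 980.1 ± 607 CPM and from 133 ± 48.0 to 688 ± 340 CPM. Clec4b1, a related lectin receptor, fell from 21.1 ± 11.2 to 1.34 ± 0.666 CPM in wildtype and from 50.4 ± 21.7 to 2.30 ± 1.31 CPM in AhR-deficient BMDMs. Between the genotypes, Cd300ld was lower in AhR-deficient BMDMs after LPS (2.43 ± 1.09 against 8.81 ± 6.68 CPM, log2 fold change -1.86, SE 0.38, adjusted p = 0.0016).

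Downstream of the chain, all 24 genes of activating signalling were tested. LPS raised 3 and lowered 2 in each genotype, shares no higher than over all tested genes (13.2% and 11.8% in wildtype, 15.1% and 15.7% in AhR-deficient BMDMs), with a median log2 fold change of 0.23 in wildtype and -0.04 in AhR-deficient BMDMs. On leaving out library 17 or 21, 3 were called in wildtype in place of 5. The adaptor Blnk rose from 1.34 ± 0.665 to 32.4 ± 13.4 CPM in wildtype and from 3.85 ± 1.56 to 50.3 ± 19.2 CPM in AhR-deficient BMDMs, and the kinase Src and the adaptor Lcp2 (SLP-76) rose in both. Blnk was also higher in AhR-deficient BMDMs at rest (log2 fold change 1.52, SE 0.39, adjusted p = 0.016, edgeR), and the kinase Fyn was lower in them after LPS, at 4.73 ± 3.73 against 15.2 ± 5.53 CPM (-1.68, SE 0.45, adjusted p = 0.013), while 2 of the 24 were called after LPS without library 31 or 37. Of 12 genes of inhibitory signalling, LPS raised 3 and lowered 1 in each genotype, among them the adaptor Dok1, which rose from 32.2 ± 6.08 to 127 ± 51.2 CPM in wildtype and from 22.7 ± 3.68 to 175 ± 39.3 CPM in AhR-deficient BMDMs. At rest, where 3.57% of all tested genes were called lower, 2 of the 12 were lower in AhR-deficient BMDMs, the adaptor Dok3 (25.02 ± 3.82 against 50.5 ± 8.54 CPM, log2 fold change -1.01, SE 0.14, adjusted p = 2.53e-05) and the phosphatase Ptpn22 (6.06 ± 1.57 against 15.1 ± 6.51 CPM, -1.31, SE 0.26, adjusted p = 0.0019). On leaving out any of libraries 17, 18, 19, 34, 35 or 36, 1 of the 12 was called at rest. Dok3 also had an interaction of 0.90 (SE 0.19, adjusted p = 0.0073).

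Of the 7 subunits of the phagocyte oxidase, which makes superoxide in the phagosome, LPS raised 4 in each genotype (over all tested genes, 13.2% in wildtype and 15.1% in AhR-deficient BMDMs were called higher), with a median log2 fold change of 1.23 in wildtype and 1.24 in AhR-deficient BMDMs. Ncf4 (p40phox), its cytosolic regulator, was the subunit called between the genotypes. At rest it was lower in AhR-deficient BMDMs (38.2 ± 3.24 against 82.7 ± 9.27 CPM, log2 fold change -1.12, SE 0.12, adjusted p = 8.17e-07, edgeR), it reached 243 ± 38.01 CPM in wildtype and 269 ± 33.7 CPM in AhR-deficient BMDMs after LPS, and its interaction was 1.26 (SE 0.16, adjusted p = 6.98e-05). Of all tested genes 3.57% were called lower in AhR-deficient BMDMs at rest and 6.19% after LPS. Among 20 genes of the phagocytic cytoskeleton, 2 were lower in AhR-deficient BMDMs at rest, Marcksl1 (10.4 ± 5.34 against 44.0 ± 10.4 CPM) and the kinase Pak1 (25.4 ± 5.82 against 62.9 ± 19.8 CPM), and 1 was lower after LPS, Marcks (78.2 ± 22.5 against 182 ± 71.9 CPM). After LPS 2 were called on leaving out any of libraries 19, 29, 30, 31, 32, 37, 38 or 39. LPS raised 2 and lowered 1 of them in wildtype and raised 1 and lowered 1 in AhR-deficient BMDMs, again no larger a share than over all tested genes.

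Other Fc receptors were mostly scarce, and 8 of 13 were tested. LPS raised 6 and lowered 2 in wildtype (median log2 fold change 1.65) and raised 3 and lowered 1 in AhR-deficient BMDMs (0.95). Over all tested genes, 13.2% were called higher and 11.8% lower in wildtype, and 15.1% and 15.7% in AhR-deficient BMDMs. Trim21, the cytosolic antibody receptor, rose from 23.6 ± 3.02 to 84.9 ± 21.1 CPM in wildtype (log2 fold change 1.85, SE 0.17, adjusted p = 7.50e-09, edgeR) and from 19.1 ± 3.11 to 119 ± 21.96 CPM in AhR-deficient BMDMs (2.64, SE 0.18, adjusted p = 1.72e-11). The Fc receptor-like gene Fcrls fell from 15.3 ± 7.64 to 0.551 ± 0.355 CPM and from 15.2 ± 4.23 to 0.411 ± 0.262 CPM. Between the genotypes at rest, 0.916% of all tested genes were called higher in AhR-deficient BMDMs. Of the 8, this held for 1, Fcrlb (27.8 ± 8.29 against 12.3 ± 4.06 CPM, log2 fold change 1.17, SE 0.27, adjusted p = 0.0067, edgeR). This count was 2 or 3 in 8 other settings, among them 3 with DESeq2, the run as a factor, the length slope or the first residual component, and on leaving out single libraries it was 3 without library 33 or 37 and 2 without library 17, 23, 25, 30, 34, 36 or 39. After LPS 1 was higher, Fcrla, and 2 were lower, Fcmr and the IgE receptor β chain Ms4a2, each below 2 CPM in both group means. Over all tested genes 2.17% were called higher and 6.19% lower in this comparison.

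Reads on immunoglobulin heavy chain constant genes were also counted. Whether they come from complete antibody transcripts was not tested, and the light chain gene Igkc had 135 counts over all 24 libraries. Of the 8 heavy chain genes listed 3 were tested, and all 3 were called lower in AhR-deficient BMDMs at rest, beside 3.57% of all tested genes. Ighm was at 28.8 ± 12.9 CPM in wildtype and 0.657 ± 0.230 CPM in AhR-deficient BMDMs (log2 fold change -5.45, SE 0.88, adjusted p = 2.08e-04, edgeR), and Igha at 9.21 ± 5.45 against 0.0156 ± 0.0383 CPM. Ighg2b was at 2.40 ± 1.42 CPM in wildtype and had no count in AhR-deficient BMDMs, which allows up to 0.00868 CPM over that group. LPS lowered the same 3 in wildtype (11.8% of all tested genes), to 1.33 ± 0.584 CPM for Ighm. B and plasma cell markers were near 0 in these libraries, as given above beside Fcgr2b.

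Genes whose log2(CPM + 0.5) ran most like each receptor over the 24 libraries were looked up among 12714 tested genes with a mean of at least 1 CPM. The libraries share genotype, LPS and length slope, so the coefficients describe these libraries only. For Fcgr1 they were Phf11d, Il27 (a subunit of interleukin-27), Gm6904, Ms4a6d and Gm13822 (Pearson r 0.988 to 0.990). Fcgr2b ran with Clmp, Cybb (the catalytic subunit of the phagocyte oxidase), Tnfrsf1b (a TNF receptor), Susd6 and Cfb (complement factor B), at r of 0.949 to 0.962. The genes nearest to Fcgr3 were Pttg1ip, P2rx4 (an ATP-gated channel), Dcstamp (a fusion protein of osteoclasts and giant cells), Gm33782 and Setd3 (0.976 to 0.989). Fcgr4 had the lowest coefficients, with Max (the partner of Myc), Thap3, Trim34b, Zcchc4 and Milr1 (0.898 to 0.906). Fcer1g ran with Alas1 (haem synthesis), Fst (follistatin), Cxcl3 (a neutrophil chemokine), Il20rb and Gng12 (0.981 to 0.985), and Fcgrt with Fam91a1, Rab3d, Klhl9, Ndufs1 (a subunit of respiratory complex I) and Prps2 (0.972 to 0.978). Among the 6 genes themselves, Fcgr1 and Fcgr3 were closest (r = 0.939), the coefficient of Fcgr2b and Fcgr4 was 0.334, and those of Fcgrt were negative with all other members (r = -0.640 with Fcgr4 and -0.917 with Fcer1g).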

How the data were processed

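The authors aligned read pairs from poly(A) RNA (stranded kit) to mm10 and counted uniquely aligned fragments per Ensembl gene with featureCounts 2.0.1. The deposited values are these raw counts. Spike-in rows (92, with 1 count in all) were left out. Symbols were found for 55154 of 55421 genes in GENCODE M21. All 24 libraries entered a single fit in edgeR 4.0.16 (TMM, filterByExpr, robust quasi-likelihood test, R 4.3.3), with Benjamini-Hochberg adjustment over 16593 genes. Exact permutation tests of ratios (0.5 added to counts) ran over all arrangements with numpy 2.4.6, and scipy 1.17.1 gave the ranks for Spearman's rho. The tests were also checked on simulated data, for the permutation test on values drawn from a normal distribution. Replicates differed by more than counting noise (chi-square per degree of freedom 16.3 to 1147 in 60 pairs), and the biological coefficient of variation was 49.1%. The members and lists, written from general knowledge, were chosen with earlier results of these data known. Named are the 6 members, B2m, Tyrobp, Ahr, called list members (at most 4 per list and comparison), lists of 3 and the 5 genes most like each member; further cell type markers were named after their values were seen. Alternatives were other size factors, DESeq2 1.42.0, limma-voom 3.58.1, other filters, fewer libraries, covariates and each library left out. Protein sequences were not used here, and 1 planned promoter motif is not reported here.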

Additional observations from a re-analysis of the deposited data

Results flagged for a closer look

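The lowest and highest library of each group were compared with the spread of the group for the 6 genes and 3 ratios, 36 groups of 6 in all, of which chance sets about 1 in 20 apart. In AhR-deficient BMDMs after LPS, library 39 stood apart in Fcgr3, at 2164 CPM with the next library at 1885 CPM. In unstimulated wildtype BMDMs, library 33 stood apart in Fcgr4, at 27.9 CPM with the next at 19.5 CPM. The genotype effect with and without LPS differed by test of the interaction for Fcgr1 (1.38 on the log2 scale) and for Fcgr4 (1.63).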

How the results depend on the processing

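No paired analysis was possible because the library numbers are not shared between groups, but the runs of 8 numbers, which hold 2 libraries of every group, were fitted as a factor. The number of Fc receptor genes called for genotype without stimulation was 0 with DESeq2 size factors, with DESeq2, without a filter, with a mean of at least 1 CPM, with only the 12 libraries compared and without libraries 19 and 33, and 0 to 1 on leaving out single libraries. For genotype after LPS it was 3 with no minimum fold change, and for LPS in wildtype 3 with total library size. For the interaction it was 1 without a filter, 4 with the length slope, 5 with the first residual component, 1 without libraries 19 and 33 (a choice made after seeing the data), and 1 to 2 on leaving out single libraries. The log2 fold change of Fcgr2b for genotype after LPS, 0.00, changed sign with total library size (-0.22), without a filter (-9.16e-04), without libraries 19 and 33 (-0.0070) and on leaving out single libraries (-0.12 to 0.16). The Fcer1g interaction was -1.27e-05 with total library size. Tyrobp without stimulation, -0.01, was 0.0076 with DESeq2 size factors or DESeq2, 0.0049 with a mean of at least 1 CPM, 0.016 with the 12 libraries, 0.017 with the run as a factor, 0.0010 with the length slope and -0.22 to 0.18 on leaving out single libraries. The ratio to Fcgr2b within single runs was 2.02 for Fcgr1 upon LPS in wildtype, 2.39 and 3.80 for Fcgr1 upon LPS in AhR-deficient BMDMs, -0.83 for Fcgr4 between genotypes at rest, and for Fcgr4 upon LPS -1.52 in wildtype and 2.54 in AhR-deficient BMDMs. On leaving out single libraries some ratios passed the threshold that they had missed: Fcgr1 between genotypes at rest (-0.85 to -0.59), Fcgr1 upon LPS in wildtype (0.85 to 1.46), Fcgr3 upon LPS in AhR-deficient BMDMs (0.52 to 0.82), Fcgr3 between genotypes after LPS (0.49 to 0.84) and Fcgr4 upon LPS in AhR-deficient BMDMs (1.40 to 1.89). The causes were not tested. Of 1074 refitted fold changes of the 6 genes, 1018 kept their direction and their side of the threshold. By Spearman's rho, 0 of the 5 genes most like Fcgr1 and 4 of those most like Fcgr2b remained among the nearest 5. Depth did not limit the 6 genes, but genes under 1 CPM rest on few counts.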
